A study of Mus musculus with 8 samples.

Results

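A set of 10 genes of the extracellular matrix and its turnover was followed: the adhesive and matricellular proteins Fn1, Thbs1, Sparc, Postn and Tgfbi, the metalloproteinases Mmp2 and Mmp14, and the tissue inhibitors of metalloproteinases Timp1, Timp2 and Timp3. They were taken by symbol from the deposited table, and all 10 of 10 were found among its 21879 genes and passed the filter on low counts, which left 11576 genes to test. RNA came from TCMK-1, an immortal epithelial line from mouse kidney tubule, with either a control shRNA or an shRNA against smgGDS, and both groups had been exposed to 20 µM cisplatin, a DNA-crosslinking platinum drug. smgGDS, encoded by Rap1gds1, is a chaperone and exchange factor of small GTPases, and the study's title links it to cisplatin injury of the kidney through PERK-dependent endoplasmic reticulum stress. Each group held 4 libraries of poly(A)-selected RNA, and no untreated libraries enter the comparison. Since nothing in the labels tells separate cultures or clones apart within a group, each may be 1 line, and the p-values measure only the spread between libraries, which may be technical.

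Matricellular proteins are secreted into the matrix and modulate how cells attach to it and respond to growth factors, rather than serving mainly as its scaffold. Metalloproteinases cleave matrix proteins and cell surface proteins, and the TIMPs bind their catalytic site and block it. TIMP2 has a further role, since together with MT1-MMP, the membrane-anchored product of Mmp14, it brings the proenzyme of MMP2 to the cell surface for activation. In the kidney these genes are studied chiefly in tubulointerstitial scarring, where tubular cells are one source of the proteins among several.

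The depth was 11560977 to 16059158 expected counts in control libraries and 12746051 to 14280962 in knockdown libraries. Rap1gds1 itself, the check of the labels, had 15.5 to 17.0 CPM (counts per 1000000, with libraries scaled by TMM factors) in control libraries and 2.36 to 2.80 CPM in all 4 knockdown libraries. On the first principal component of log2 CPM knockdown replicate 4 lay at 20.9, apart from the other knockdown libraries at 8.86 to 9.58, while the controls lay between -16.5 and -8.86, so the estimates of the 10 genes are also given without it. Markers of tubular epithelium were mostly low: of 12, 8 could be tested, the epithelial cadherin Cdh1 reached at most 5 counts in any library and Cdh16 at most 13, while Aqp1 was at 155 CPM in controls. Of the fibroblast and pericyte markers, Col1a1 was at 281 CPM in controls, whereas Lum, Pdgfra and Rgs5 reached at most 5, 9 and 4 counts. Of the 6 that could be tested, Col1a1, Col1a2, Col3a1, Dcn and Pdgfrb rose in the knockdown and Cspg4 was not called. Their median log2 fold change (knockdown minus control) was 0.40, against -0.0033 over all tested genes. Of all tested genes 11.1% rose and 9.15% fell, and 20.2% were called in either direction. Most of the summed level of the 9 fibroblast and pericyte markers came from Col1a1. This sum was 328 to 355 CPM for control libraries, against 396 to 455 CPM for knockdown libraries. That of the 12 epithelial markers was 188 to 198 and 160 to 170 CPM. The lower epithelial sum lay almost wholly in Aqp1 (155 and 127 CPM), the 1 called of the 8 tested. The summed leukocyte markers (6 genes, mostly Cd68 and Cd14, the 1 called of 3 tested at 76.6 and 59.6 CPM, with Adgre1 at 0 in every library) were at 131 to 140 and 112 to 123 CPM, and the endothelial ones (6 genes, nearly all of it Flt1) at 7.61 to 9.58 and 11.9 to 13.8 CPM. Their part in the results below was not tested, and in a bulk sample fewer cells of a type and less RNA per cell cannot be told apart.

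Most of the 10 transcripts were more abundant in the knockdown. There were 6 rises (Fn1, Sparc, Tgfbi, Timp2, Timp3 and Mmp2) and 1 fall (Timp1) by edgeR's quasi-likelihood test at an adjusted p below 0.05, and Thbs1, Postn and Mmp14 did not pass. Among all 11576 genes 11.1% rose and 9.15% fell by the same rule. The changes were modest, from 15% for Mmp2 to 41.8% for Timp3 among the rises and a decrease of 9.5% for Timp1. Log2 fold changes are knockdown minus control. Their median over the 10 genes was 0.21, against -0.0033 over all tested genes. The middle 90% of all tested genes lay between -0.39 and 0.37, so that Timp3 and Fn1 lay above that range and the other 8 within it. All 6 of the genes that rose had every knockdown library above every control library, and Thbs1 had every knockdown library below, while the groups of Timp1, Postn and Mmp14 overlapped. Over all tested genes 21.1% were separated, 11.5% upward and 9.61% downward.

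**Figure D1:**
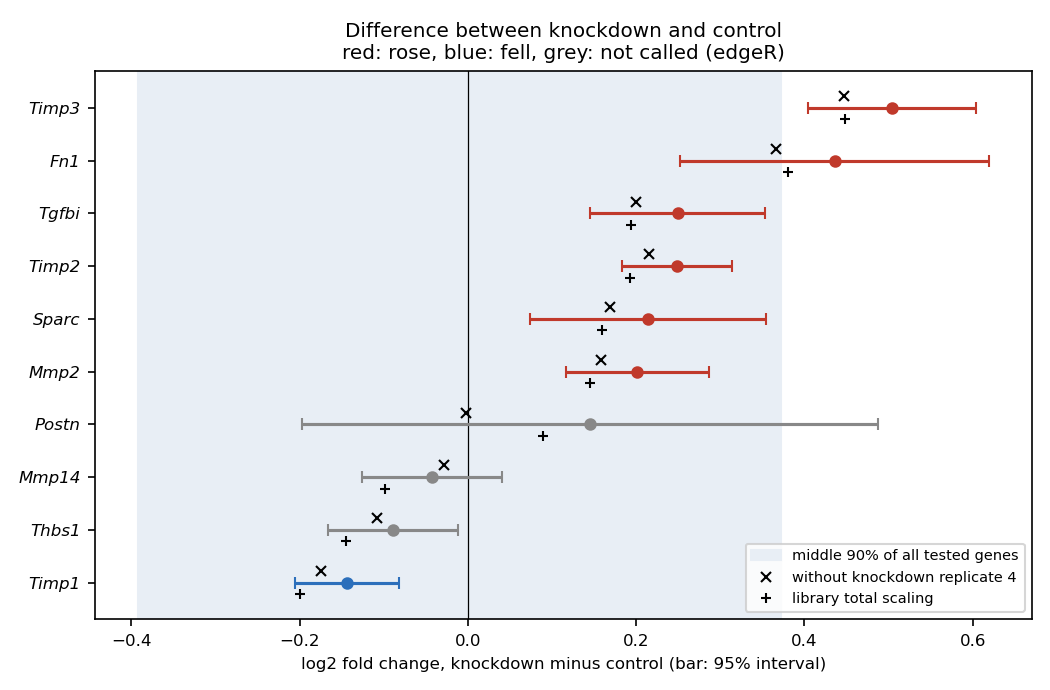
Log2 fold change (knockdown minus control, horizontal axis) of each of the 10 genes with its 95% interval, coloured by whether it rose, fell or was not called. Crosses give the estimate without knockdown replicate 4 and plus signs the estimate with scaling by library total; the shaded band, from -0.39 to 0.37, holds the middle 90% of all tested genes, and the points of Timp3 and Fn1 lie to its right.

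The 10 genes spanned a wide range of levels. On the authors' FPKM scale, which accounts for transcript length, the order in controls was Timp1 (1253 ± 40.7), Sparc (843 ± 40.8), Fn1 (530 ± 21.4), Timp2 (175 ± 6.12), Timp3 (55.4 ± 1.78), Mmp2 (38.6 ± 0.63), Mmp14 (32.7 ± 1.67), Tgfbi (29.7 ± 1.94), Thbs1 (24.3 ± 0.43) and Postn (1.81 ± 0.43; SD, n = 4 each). Neighbours in this order did not overlap between control libraries except Mmp14 and Tgfbi, whose FPKM ranges were 30.6 to 34.4 and 28.1 to 31.9. Timp1, Sparc and Fn1 ranked 85, 114 and 166 by mean FPKM among the 11576 tested genes. Together the 10 genes took 0.856% to 0.931% of all counts in the control libraries and 1.01% to 1.18% in the knockdown libraries, with Fn1 alone at 0.408% to 0.449% and 0.532% to 0.641%.

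**Figure D2:**
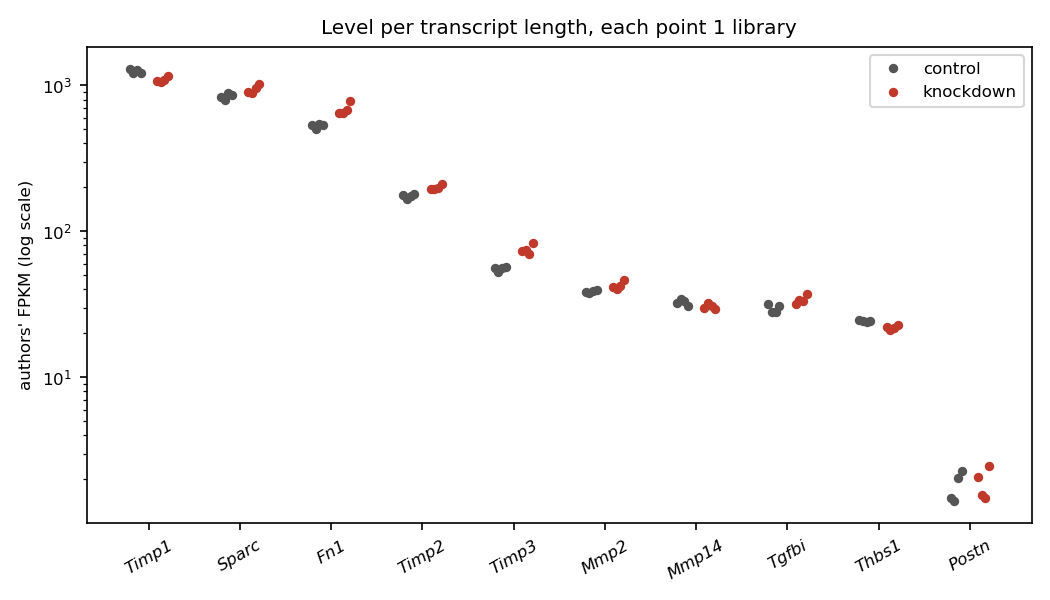
The authors' FPKM (vertical log axis) of each gene in each library, grey for control and red for knockdown, ordered by the control mean. The genes run from Timp1 at 1253 FPKM to Postn at 1.81 FPKM in controls, a range far wider than any difference between the groups.

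Fn1 encodes fibronectin, a large adhesive glycoprotein that is assembled into fibrils and bound by integrins. The gene (ncbi_14268) lies on the minus strand of chromosome 1, from 71585473 to 71653280 (GRCm38.p6), and overlaps the gene Apol7d on the opposite strand, which was not analysed here. It was at 4294, 3954, 4434 and 4359 CPM in the 4 controls (replicates 1 to 4, in this order throughout) and 5419, 5387, 5662 and 6586 CPM in the 4 knockdown libraries. Every knockdown library lay above every control, with knockdown replicate 4 well above the other three. The log2 fold change was 0.44 (SE 0.08, 95% interval 0.25 to 0.62, edgeR adjusted p = 0.00877), an increase of 35.3%. Without knockdown replicate 4 it was 0.37 (SE 0.03, edgeR adjusted p = 5.92e-11), and over the other libraries left out in turn the adjusted p was at most 0.0289.

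Sparc encodes osteonectin, a collagen-binding matricellular protein with affinity for calcium, and lies on chromosome 11, 55394159 to 55420080, minus strand. Its level was 2170, 2017, 2309 and 2246 CPM in the controls and 2407, 2389, 2573 and 2772 CPM in the knockdown. The groups did not overlap, but the highest control and the lowest knockdown library were close. The log2 fold change was 0.21 (SE 0.06, edgeR adjusted p = 0.0433), and the call depended on single libraries and on the scaling. It was lost without control replicate 1 (adjusted p = 0.085), control replicate 4 (0.0708) or knockdown replicate 3 (0.102), with limma voom (0.0654) and with scaling by library total (log2 fold change 0.16, adjusted p = 0.0702), while without knockdown replicate 4 the estimate was 0.17 and was called. With the replicate number as a block the log2 fold change of Sparc was 0.21 (SE 0.02, edgeR adjusted p = 1.49e-10).

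Tgfbi, induced by TGF-beta in many cells, encodes a secreted protein that binds collagens and integrins (chromosome 13, 56609586 to 56639359, plus strand). Its values were 83.9, 72.9, 74.3 and 81.5 CPM in the controls, against 87.2, 91.4, 90.5 and 102 CPM in the knockdown, so the groups were separated by a narrow gap. Its log2 fold change was 0.25 (SE 0.05, edgeR adjusted p = 0.000365), and 0.20 without knockdown replicate 4.

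Thbs1, which encodes thrombospondin 1, an activator of latent TGF-beta and a ligand of CD47, went the other way without passing the test. The gene lies on chromosome 2, 118111876 to 118127133, plus strand. It was at 142, 138, 137 and 141 CPM in the controls, against 133, 125, 131 and 136 CPM in the knockdown, with all knockdown libraries just below all controls. For this gene the log2 fold change was -0.09 (SE 0.04, 95% interval -0.17 to -0.01, edgeR adjusted p = 0.097). It passed as a fall with scaling by library total (-0.14, edgeR adjusted p = 0.00452), on the authors' FPKM (-0.14, limma adjusted p = 0.0398) and without knockdown replicate 4 (-0.11, edgeR adjusted p = 0.0486). With library-total scaling and on FPKM the median of all tested genes was also lower, at -0.0593 and -0.0508.

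Postn, which encodes periostin, a matricellular protein of fibroblasts and of injured kidney (chromosome 3, 54359267 to 54391041, plus strand), was scarce. It had 75, 71, 91 and 83 counts in the controls and 92, 64, 60 and 99 in the knockdown, or 4.62, 4.28, 6.35 and 7.10 CPM against 6.56, 5.03, 4.81 and 7.91 CPM. High and low libraries occurred in both groups, and the coefficient of variation was 24.3% in controls and 23.9% in the knockdown, against 1.69% to 6.85% in controls for the other 9 genes. The log2 fold change of 0.14 had a 95% interval from -0.20 to 0.49 (edgeR adjusted p = 0.607) and thus included increases as large as those of Timp2 and Mmp2, which were not detectable at this depth and spread. Without knockdown replicate 4 the estimate was -0.0024.

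**Figure D3:**
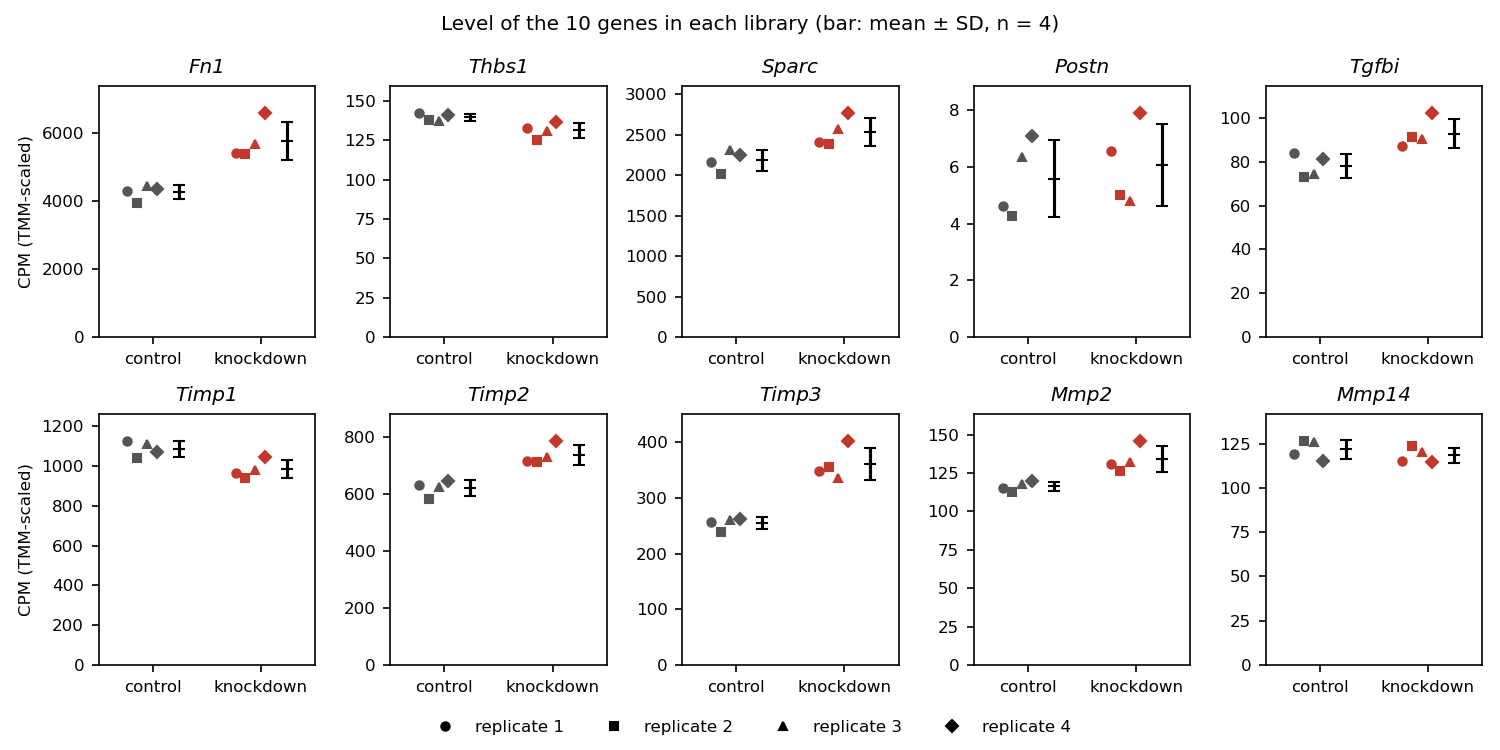
CPM (vertical axes, each from 0) of the 10 genes in the 4 control (grey) and 4 knockdown (red) libraries, with replicate numbers as symbols and the mean ± SD beside each group. The knockdown libraries lie above all controls for Fn1, Sparc, Tgfbi, Timp2, Timp3 and Mmp2, and the diamond of knockdown replicate 4 is the highest knockdown library in 9 of the 10 panels.

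The 3 inhibitors did not change alike. Timp2 and Timp3 rose and Timp1 fell. To show the start regions of the genes whose transcripts parted in this way, the 250 bases before each annotated start are given 5′ to 3′ on the gene's own strand, from the RefSeq promoter table of GRCm38.p6, which held 7 of the 10 genes. Capitals mark matches to any of 7 motifs searched on both strands: AP-1 (TGAGTCA or TGACTCA), CRE (TGACGTCA), the GC box (GGGCGG), the TATA box (TATAAA), the TEAD motif (CATTCC), CARE (TGATGNAA) and the CArG box.
Timp1 (chrX:20869916-20870165, plus strand): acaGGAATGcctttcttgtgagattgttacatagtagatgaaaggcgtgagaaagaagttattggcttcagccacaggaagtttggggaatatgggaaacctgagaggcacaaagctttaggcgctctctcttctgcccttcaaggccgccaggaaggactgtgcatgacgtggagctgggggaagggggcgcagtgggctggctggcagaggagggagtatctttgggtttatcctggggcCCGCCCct
Timp2 (chr11:118355412-118355661, minus strand): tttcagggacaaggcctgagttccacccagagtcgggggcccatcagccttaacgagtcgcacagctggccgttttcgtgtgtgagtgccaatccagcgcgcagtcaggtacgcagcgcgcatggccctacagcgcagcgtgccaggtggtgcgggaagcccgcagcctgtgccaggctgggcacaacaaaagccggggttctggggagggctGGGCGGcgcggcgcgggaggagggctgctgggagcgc
Timp3 (chr10:86300162-86300411, plus strand): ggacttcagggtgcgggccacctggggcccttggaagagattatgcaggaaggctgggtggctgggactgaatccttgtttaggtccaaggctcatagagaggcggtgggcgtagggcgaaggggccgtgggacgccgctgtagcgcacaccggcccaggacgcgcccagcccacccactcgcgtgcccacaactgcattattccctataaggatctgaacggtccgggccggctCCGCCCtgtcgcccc
Each of the 3 windows held 1 GC box, which began 8 bases before the start in Timp1, 37 in Timp2 and 15 in Timp3, and 32.7% of all 32851 windows of this length held at least 1. Timp1 also had a TEAD match 247 bases before the start, a motif found in 12.6% of all windows, and no other match was found in the 3. The GC content was 54.4% for Timp1, 68% for Timp2 and 65.6% for Timp3, against a median of 52.4% over all windows. These matches describe the letters only and were not tied to any measurement of binding.

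Timp3 encodes the TIMP that stays bound to the extracellular matrix and also inhibits ADAM proteases. It changed most of the 10 genes. It was at 257, 239, 260 and 262 CPM in the controls, against 348, 356, 336 and 403 CPM in the knockdown, with a clear gap between the groups. On the log2 scale the difference was 0.50 (SE 0.05, 95% interval 0.40 to 0.60, edgeR adjusted p = 6.77e-07), and 0.45 without knockdown replicate 4. The gene (chromosome 10, 86300412 to 86349505, plus strand) lies within Syn3 on the opposite strand, whose count was 16 to 27 per library and thus small beside the 3066 to 5039 counts of Timp3.

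Timp2, whose product is a soluble inhibitor and the partner of MT1-MMP in the activation of pro-MMP2, was at 631, 583, 626 and 646 CPM in the controls, against 719, 715, 730 and 788 CPM in the knockdown. All knockdown libraries lay above all controls. The log2 fold change of 0.25 (SE 0.03, edgeR adjusted p = 3.07e-07) had the smallest p-value of the 10 genes and ranked 122 among all tested genes. It was 0.22 without knockdown replicate 4. The gene (chromosome 11, 118301061 to 118355411, minus strand) contains Cep295nl on the same strand, which was not analysed here.

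Timp1, the inducible soluble inhibitor and the most abundant of the 10 transcripts per length, was at 1127, 1039, 1110 and 1069 CPM in the controls, against 966, 939, 981 and 1046 CPM in the knockdown. The groups overlapped only through control replicate 2 and knockdown replicate 4. On the authors' FPKM every knockdown library lay below every control, on a scale where the median of all tested genes was -0.0508. The log2 fold change of Timp1 was -0.14 (SE 0.03, 95% interval -0.21 to -0.08, edgeR adjusted p = 0.000532). Without knockdown replicate 4 it was -0.175. With scaling by library total it was -0.20, where the median of all tested genes was -0.0593. The gene (chromosome X, 20870166 to 20874737, plus strand) lies within Syn1 on the opposite strand, which had 23 to 53 counts per library against 11957 to 18315 for Timp1.

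Ratios within a library do not depend on how libraries are scaled to each other. Of the summed FPKM of the 3 inhibitors, Timp1 made up 84.8%, 84.7%, 84.6% and 83.8% in the controls and 80.04%, 79.55%, 80.3% and 79.6% in the knockdown libraries. The share of Timp2 was 11.6% to 12.3% in controls and 14.5% to 14.8% in the knockdown, and that of Timp3 was 3.64% to 3.88% and 5.18% to 5.78%. Timp1 was the main TIMP transcript in every library while its share was lower in each knockdown library than in each control. The ratio of Timp3 to Timp1 FPKM was 0.0442 ± 0.0015 in controls and 0.0692 ± 0.0036 in the knockdown (SD, n = 4 each), without overlap. These shares and ratios combine genes already tested singly and were given no test.

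**Figure D4:**
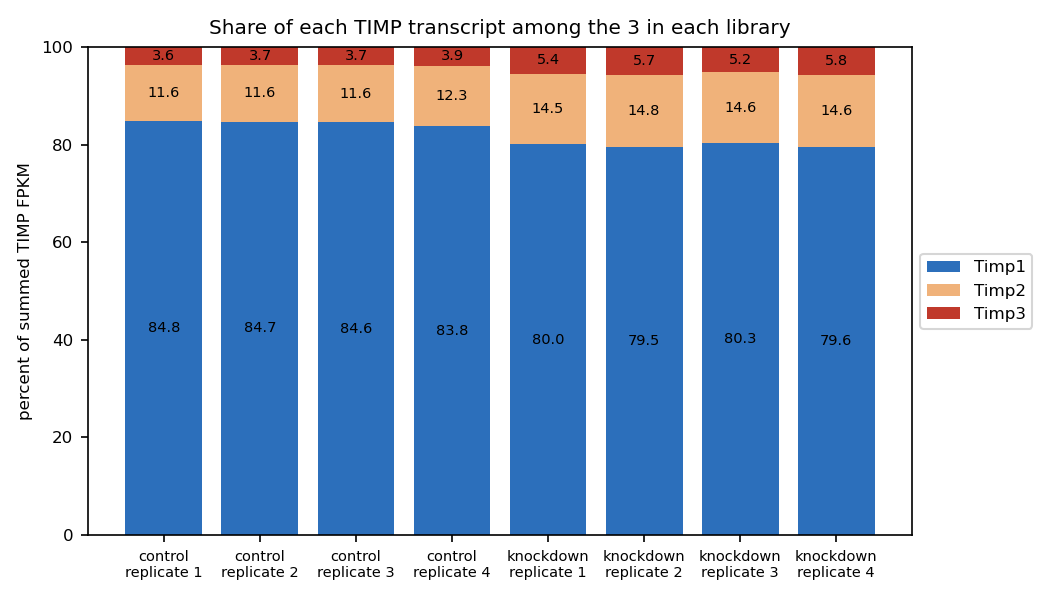
Share of Timp1, Timp2 and Timp3 in the summed FPKM of the 3 transcripts (vertical axis, percent) for each of the 8 libraries. Timp1 takes 83.8% to 84.8% in the controls and 79.55% to 80.3% in the knockdown, and the parts of Timp2 and Timp3 are larger in all 4 knockdown libraries.

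Of the proteases, Mmp2 rose and Mmp14 was not called. Mmp2, which encodes gelatinase A, a secreted enzyme that cleaves denatured collagen and collagen IV, went from 116, 113, 118 and 120 CPM in controls to 131, 126, 133 and 146 CPM in the knockdown (chromosome 8, 92827290 to 92853421, plus strand). The groups did not overlap. Its log2 fold change was 0.20 (SE 0.04, edgeR adjusted p = 0.000369), and 0.16 without knockdown replicate 4. Mmp14 (chromosome 14, 54431598 to 54442456, plus strand) was at 120, 127, 126 and 115 CPM in the controls, against 116, 124, 120 and 115 CPM in the knockdown, and the groups covered nearly the same range. The log2 fold change of Mmp14 was -0.04 with a 95% interval of -0.13 to 0.04 (edgeR adjusted p = 0.522), so that the upper bound of its interval lay below the estimates of Mmp2 and Timp2. The estimate was -0.03 without knockdown replicate 4.

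Mmp2 and Mmp14 were also set against Timp2, and against each other, within each library. The ratio of Mmp2 to Timp2 FPKM was 0.216 to 0.228 in controls and 0.208 to 0.218 in the knockdown, and these ranges overlapped. The ratio of Mmp14 to Timp2 was 0.170 to 0.207 in controls and 0.139 to 0.165 in the knockdown, without overlap. Mmp2 relative to Mmp14 was 1.101 to 1.286 in controls and 1.265 to 1.575 in the knockdown, and these ranges overlapped. The summed FPKM of the 3 TIMPs was 19.8 to 21.8 times that of Mmp2 plus Mmp14 in controls and 18.2 to 19.2 times in the knockdown, also without overlap. Timp1, which fell, made up 79.55% to 84.8% of that TIMP sum, whereas Timp2 and Timp3 rose. Fn1 was also higher relative to Sparc and to Thbs1. Its ratio to Sparc FPKM was 0.619 to 0.639 in controls and 0.710 to 0.767 in the knockdown. The ratio of Fn1 to Thbs1 was 20.5 to 23.0 in controls and 29.2 to 34.5 in the knockdown. All of these ratios combine genes already tested singly and were given no test.

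Knockdown replicate 4 was the highest of the knockdown libraries for 9 of the 10 genes, the exception being Mmp14, for which it was the lowest of all 8. Control replicate 2 was the lowest of all 8 libraries for 7 genes, among them all 6 that rose. The fibroblast and pericyte marker sum had its extremes in the same libraries, 455 CPM in knockdown replicate 4 and 328 CPM in control replicate 2. All 6 rises kept their calls without knockdown replicate 4, with estimates between 0.16 and 0.45, and 2 genes then fell, Timp1 and Thbs1. In that fit 8.85% of all tested genes rose and 6.87% fell.

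Among other glycoproteins and matricellular genes 10 rose and 1 fell, of 22 tested and 31 listed, with a median log2 fold change of 0.17. For this and the next 3 lists, the shares over all tested genes were 11.1% that rose and 9.15% that fell. Fstl1, a secreted follistatin-like relative of SPARC, was at 539 ± 21.5 CPM in controls and rose to 793 ± 56.3 CPM (SD over 4 libraries). Its log2 fold change of 0.56 (SE 0.04, edgeR adjusted p = 1.42e-08) exceeded the estimate of Sparc itself. Ctgf, the CCN-family protein also called CCN2, rose by 0.32 (SE 0.04) and Tnc, encoding tenascin C, rose by 0.43 (SE 0.07) on the log2 scale. Ecm1 was the 1 that fell (-0.09, SE 0.03, edgeR adjusted p = 0.0431), a call lost without any of control replicates 1, 3 and 4 or knockdown replicates 1 and 2, with DESeq2 and after the length and GC correction. Without knockdown replicate 4, 8 rose and 1 fell, and without control replicate 1 the rises numbered 6. The rises among all tested genes were also fewer in these fits. They numbered 1033 of 11668 without knockdown replicate 4 and 1046 of 11642 without control replicate 1, against 1285 of 11576 in the main fit.

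Other metalloproteinases moved in both directions, with 3 rises and 4 falls among 23 tested of 37 listed and a median of 0.03 that turned to -0.03 with scaling by library total. Adamts1, which encodes a proteoglycan-cleaving enzyme, was at 62.0 ± 1.70 CPM in controls and fell to 47.6 ± 2.90 CPM (SD over 4 libraries), a log2 fold change of -0.38 (SE 0.05, edgeR adjusted p = 8.41e-07) that was called in all 18 alternatives. Apart from Mmp23, the other named calls concerned transcripts of low level. Mmp28 fell by 0.47 (counts not all whole, so less certain) and Mmp15 fell by 1.16 at 1.98 and 0.90 CPM. Adamts10 (0.61) and the sheddase Adam10 (0.39) rose on the log2 scale. Mmp23 rose by 0.27, and its control mean of 13.3 FPKM was close to the 12.9 FPKM of Adamts1. The remaining call, a fall, lay outside the limit of 3 named genes per direction. Mmp15 was not called without control replicate 2 (log2 fold change -0.65) or on FPKM (-0.42), Adamts10 was not called on FPKM (0.35), and Mmp23 and Adam10 lost their calls without knockdown replicate 4 or control replicate 2 and with scaling by library total. Adam10 was not called on FPKM either, nor without control replicates 3 or 4 or knockdown replicate 2, and Mmp23 not without knockdown replicate 3. The counts were 1 rise and 4 falls without knockdown replicate 4 or with library-total scaling, 1 and 2 without control replicate 2 or on FPKM, and 3 and 2 with DESeq2. Among all tested genes 1033 rose and 802 fell without knockdown replicate 4, and 1062 and 811 without control replicate 2. On FPKM 592 rose and 1481 fell, and with DESeq2 1148 rose and 920 fell. The main fit had 1285 rises and 1059 falls. The median also turned negative, to between -0.0317 and -0.0058, without control replicate 4 or knockdown replicates 1, 3 or 4, with voom and on FPKM. The list's median was -0.0273 with scaling by library total and -0.0245 on FPKM, where the median of all tested genes was lower (-0.0593 and -0.0508). With scaling by library total 1951 of all 11576 tested genes fell and 766 rose. The gelatinase Mmp9 and the collagenase Mmp8 had too few counts to be tested, Mmp8 being at 0 in every library.

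Inhibitors and other genes of matrix proteolysis rose in 7 of 16 tested genes of 20 listed, and 1 fell (median 0.15). The collagen chaperone Serpinh1 rose by 0.17 (SE 0.03, edgeR adjusted p = 9.62e-06) and the lysosomal protease Ctsl, whose counts were not all whole, rose by 0.19 (SE 0.03, edgeR adjusted p = 1.77e-07) on the log2 scale. Furin, the proprotein convertase that activates MT1-MMP, fell by 0.14 on the log2 scale (edgeR adjusted p = 0.0489) and was not called without control replicates 1, 2 or 4 or knockdown replicates 1, 2 or 4, with DESeq2 or after the length and GC correction. Without knockdown replicate 4 the count of rises stayed at 7, and on FPKM 4 rose and 1 fell. Rises among all tested genes numbered 1033 without knockdown replicate 4 and 592 on FPKM, against 1285 in the main fit. Timp4, the remaining member of the TIMP family, was at 0 in every library.

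Among receptors and binding partners of these proteins, 6 rose and 1 fell of 19 tested and 26 listed, with a median of 0.04. With library-total scaling 5 rose and 3 fell, and on FPKM 4 rose and 1 fell. The list's median was then -0.0131 and -0.013, where the median of all tested genes was lower (-0.0593 and -0.0508). Of all tested genes 766 rose and 1951 fell with library-total scaling, and 592 and 1481 on FPKM. Cd63, a tetraspanin that binds TIMP1, rose by 0.25 (SE 0.03), the syndecan Sdc2 rose by 0.46 (SE 0.05), and Cd47, the thrombospondin receptor, rose by 0.33 (SE 0.05) on the log2 scale, with edgeR adjusted p between 5.11e-09 and 8.87e-06. The laminin-binding integrin subunit Itga6 fell by 0.40 (SE 0.13, edgeR adjusted p = 0.0243) and was not called without knockdown replicates 2, 3 or 4 or control replicate 2, nor on FPKM. The rises numbered 5 without knockdown replicate 4, where 1033 of all 11668 tested genes rose. All of these lists are read against the 20.2% of tested genes that were called in either direction. The share called was 50% of the tested glycoproteins and matricellular genes and 30.4% of the metalloproteinases. It was 50% of the inhibitors and other proteolysis genes and 36.8% of the receptors.

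**Figure D5:**
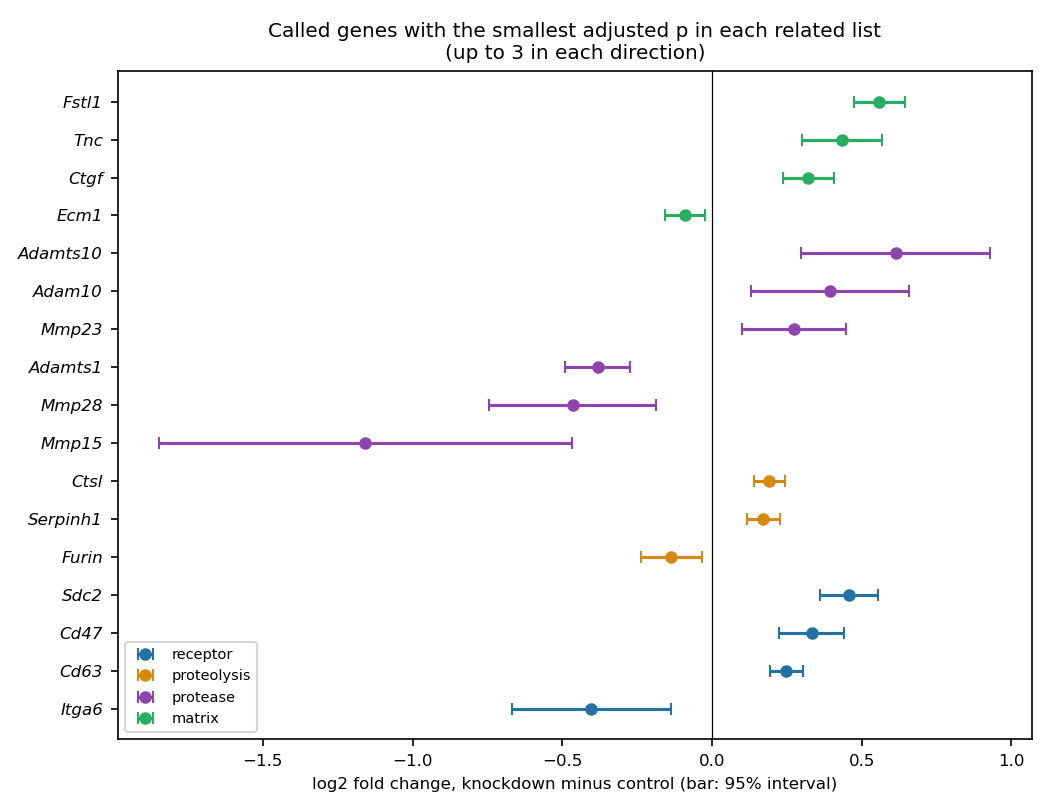
Log2 fold change (knockdown minus control, horizontal axis) with its 95% interval for the called genes of 4 related lists with the smallest adjusted p, up to 3 in each direction per list, coloured by list. Intervals are narrow for abundant transcripts such as Ctsl and Cd63 and wide for scarce ones such as Mmp15, at 1.98 CPM in controls.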

How the data were processed

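Poly(A)-selected RNA of 8 TCMK-1 libraries was sequenced, 4 per group. Per the file headers, the authors deposited 2 values per gene and library, an expected count (some not whole) and an FPKM. The submitters' processing notes name RSEM, HISAT2 2.4, Bowtie2 2.2.8, fastp 0.18.0, StringTie 1.3.1, edgeR and DESeq2, without their roles, and build GRCm38.p6. No strand setting is stated in the sources used here, and without it overlapping genes cannot be told apart. Counts of the 10 genes were whole in every library.

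After rounding, edgeR 4.0.16 (R 4.3.3) compared the groups by a two-sided robust quasi-likelihood test with TMM factors, its default filter and no covariates. P-values were Benjamini-Hochberg adjusted over 11576 genes, threshold 0.05. CPM are TMM-scaled; 3 counts equal 0.181 to 0.257 CPM, a limit that covers counting error only. Each SE is the log2 fold change divided by the square root of F, and intervals are 95%. No 2 replicates agreed within sampling noise (1.94 to 3.94 chi-square units per degree of freedom). The procedure was tested on simulated data. The genes and lists were chosen with earlier results of these data known; all 10 genes are named, and of each related list up to 3 called genes per direction with the smallest adjusted p. A gene meeting this rule is not reported here.

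Alternatives were DESeq2 1.42.0 (its size factors and its test), limma 3.58.1 (voom, and log2(FPKM + 0.5)), scaling by library total, other filters, a threshold of 0.01, a replicate term and each library left out. An offset for GC content and transcript length (from the longest GENCODE M21 transcript, 11178 genes) was chosen after seeing the data.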

Additional observations from a re-analysis of the deposited data

How the results depend on the processing

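Over 18 alternatives, Fn1, Tgfbi, Timp1, Timp2, Timp3 and Mmp2 kept direction and call in each. Their log2 fold changes ranged from 0.37 to 0.47 for Fn1, 0.19 to 0.29 for Tgfbi, -0.20 to -0.12 for Timp1, 0.19 to 0.28 for Timp2, 0.44 to 0.54 for Timp3 and 0.14 to 0.24 for Mmp2. Sparc was called in 12 of 18, with estimates of 0.16 to 0.24, while Mmp14 and Postn were called in none of the 18 (lowest adjusted p 0.0881 for Mmp14 and 0.319 for Postn). The count of genes that fell was 2 with scaling by library total, on FPKM and without knockdown replicate 4, where Thbs1 joined Timp1. Among all 11576 tested genes 1059 fell and 1285 rose in the main fit. Falls became more frequent there too with library-total scaling (1951, with 766 rises) and on FPKM (1481, with 592 rises). Without knockdown replicate 4 they did not (802 of 11668). Leaving out each library gave 5 to 6 rises and 1 to 2 falls. The estimate of Postn turned to -0.0024 without knockdown replicate 4 (edgeR adjusted p = 0.995) and reached 0.27 without control replicate 4. With the replicate number as a block, 6 rose and 1 fell, as without it, but the spread was smaller. The SE was then 0.022 against 0.060 for Sparc and 0.050 against 0.076 for Fn1, and 2660 of all tested genes were called against 2344. Same-numbered libraries deviated together weakly at most (correlations -0.0365 to 0.083). For replicates 1, 2 and 4 these lay above those of differently numbered libraries (-0.062 to 0.0377), and for replicate 3 not. The numbers were not taken as pairs in the main fit. Scaling by library total moved the median of all genes to -0.06, within which Thbs1 gained and Sparc lost its call. With 60 to 99 counts per library, depth limits Postn most.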
